A study of Mus musculus with 16 samples.

Results

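NF-κB is a family of dimeric transcription factors, and the 10 genes described here encode its 5 subunits and 5 of the proteins that bind them. They were found by symbol among the 13085 genes of the deposited table, where each of the 10 has a row. Rela, Rel and Relb carry an activation domain, whereas Nfkb1 and Nfkb2 encode precursors that are cut to the DNA-binding proteins p50 and p52. Nfkbia, Nfkbib and Nfkbie encode classical IκB inhibitors, which hold dimers in the cytoplasm, and Nfkbiz and Bcl3 encode IκB-like proteins that act in the nucleus on p50 and p52. In the canonical pathway an IκB kinase marks the inhibitors for degradation and frees dimers of RelA, c-Rel and p50. In the non-canonical pathway, which CD40 is known to engage, the kinase NIK leads to processing of the Nfkb2 product and to dimers of RelB and p52. Several of these genes are themselves known NF-κB targets.

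The data are RNA sequencing of monocytes from C57BL/6 mice, either NFAM1+/+ or NFAM1-/-, the latter carrying a germline deletion of exons 2 and 3 of Nfam1. Cells were left unstimulated or were given IFN-γ followed by CD40L, the ligand of CD40, at 1 µg/mL, and were taken after 6 or 24 h, which gave 16 libraries with 2 for each combination of genotype, stimulus and time. The labels name the cells peripheral blood monocytes while the methods describe monocytes enriched from bone marrow, the IFN-γ dose differs between labels and methods, and neither the age of the mice nor the mouse behind each library is given, so p-values measure the spread between libraries, which may be technical in part. For 4 of the 8 libraries taken at 24 h the genotype in the title is not the one in the genotype tag, so stimulus and time were compared over all 16 libraries in 4 conditions of 4 libraries, and genotype within each condition by the title. Values are CPM, in which the read count of each gene was set against a library size scaled by the authors, and log2 fold changes are differences of the deposited log2 CPM. A gene is said to have risen or fallen where the Benjamini-Hochberg adjusted p of limma's moderated test over all genes tested was under 0.05.

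The libraries held 48295939 to 88514341 reads on the listed genes, and each member had at least 4225 reads in every library. Of 8 monocyte markers 8 were in the table, with a summed level of 8038 to 30095 CPM, at 8038 to 11440 CPM in stimulated and 22240.5 to 30095 CPM in unstimulated libraries. The 10 neutrophil markers summed to 544 to 942 CPM in unstimulated libraries at 24 h and to 72.9 to 361 CPM in the other libraries, and the 5 dendritic cell markers to 90.4 to 190.5 CPM and 31.4 to 51.1 CPM. Among the 5 (Flt3, Zbtb46, Xcr1, Siglech and Clec9a), Flt3 alone was at 67.3 to 145 CPM in unstimulated libraries at 24 h. In the other libraries Flt3 was at 2.59 to 29.7 CPM, so the higher dendritic cell sum rests largely on this gene. Of 7 B cell markers 2 were listed, at a sum of at most 17.4 CPM, of 6 T cell markers 2, at most 4.54 CPM, of 4 erythroid markers 3, at most 37.1 CPM, and of 3 NK cell markers 0. In bulk RNA, fewer cells of a type and less RNA per cell cannot be told apart. Reads of Nfam1 can come from exons outside the deletion. At 6 h it was at 432 and 408 CPM in unstimulated NFAM1+/+ libraries, 299 and 321 in NFAM1-/-, 133 and 129 in stimulated NFAM1+/+ and 135 and 127 in stimulated NFAM1-/-. At 24 h, by title, it was at 463 and 495, 441 and 391, 271 and 252, and 201 and 223 CPM in the same order. Nfam1 thus does not separate the genotypes in stimulated libraries at 6 h, and genotypes are those of the titles.

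Upstream sequences of the members were read from RefSeq's table for GRCm38.p6, since NF-κB dimers bind short κB elements and several members are known to carry them. The submitters' processing notes name GRCm39, so these positions are of another build than the counts. RefSeq windows were found for 7 of the 10 members (Rela, Rel, Nfkb2, Nfkbia, Nfkbib, Nfkbie and Bcl3), with 3 windows for Nfkb2. A loose κB-like motif, GGG and CC with 5 bases of any kind between them, searched on both strands, was present in the 250 bases upstream of the start in 6 of these 7 members, but also in 45.8% of all 32851 windows. The textbook κB consensus was chosen after the first motif had been counted. It was present in 4 of the 7, namely Rel, Nfkb2, Nfkbia and Nfkbie, against 3.9% of all windows. Each of its matches also matches the loose motif. Both background shares are per window, so the 3 windows gave Nfkb2 more chances of a match than the other members. The sequences of the 4 members with a κB consensus are shown because these windows hold the matches in sequence outside the exons annotated for the gene. They are given 5′ to 3′ on the gene's strand up to the transcription start, with the consensus matches in capitals (in Rel 2 overlapping matches).
Nfkbia, chr12:55492648-55492897, minus strand: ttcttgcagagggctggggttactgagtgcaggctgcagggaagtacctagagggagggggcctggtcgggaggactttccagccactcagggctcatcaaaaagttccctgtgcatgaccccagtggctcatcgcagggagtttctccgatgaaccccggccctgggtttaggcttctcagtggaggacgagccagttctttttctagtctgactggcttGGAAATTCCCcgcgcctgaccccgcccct
Nfkbie, chr17:45555450-45555699, plus strand: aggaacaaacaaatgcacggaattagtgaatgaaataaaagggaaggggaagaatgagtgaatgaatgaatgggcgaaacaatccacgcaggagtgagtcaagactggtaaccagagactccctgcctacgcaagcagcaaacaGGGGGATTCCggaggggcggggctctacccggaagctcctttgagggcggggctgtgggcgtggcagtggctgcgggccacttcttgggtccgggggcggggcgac
Rel, chr11:23770971-23771219, minus strand: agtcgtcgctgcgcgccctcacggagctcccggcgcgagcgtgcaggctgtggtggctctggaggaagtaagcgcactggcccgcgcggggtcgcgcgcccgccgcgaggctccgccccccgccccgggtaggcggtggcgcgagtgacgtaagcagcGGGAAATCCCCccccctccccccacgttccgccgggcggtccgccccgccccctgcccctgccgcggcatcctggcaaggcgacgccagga
Nfkb2, chr19:46305445-46305694, plus strand, the second of 3 starts: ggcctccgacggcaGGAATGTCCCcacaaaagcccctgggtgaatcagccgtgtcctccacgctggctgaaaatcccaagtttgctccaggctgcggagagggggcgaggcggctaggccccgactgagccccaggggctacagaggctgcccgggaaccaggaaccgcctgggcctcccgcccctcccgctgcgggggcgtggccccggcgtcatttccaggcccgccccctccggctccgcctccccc
The matches begin at position -29 for Nfkbia, -106 for Nfkbie, -92 for Rel and -236 for this start of Nfkb2, of whose window 167 bases lie in an exon of AC114539.1, a noncoding gene on the opposite strand. The first Nfkb2 start, whose window lies in an annotated exon and is not printed, has the consensus as GGGAATTCCC at -39 and GGGGCTTTCC at -11. The third has GGGACTTTCC at -225, and the same site lies at position 11 after the second start. In Bcl3 a consensus match lies just after the start, at position 3. In the Rela and Nfkbib windows there was none, which says only that these letters are not in those bases.

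**Figure D1:**
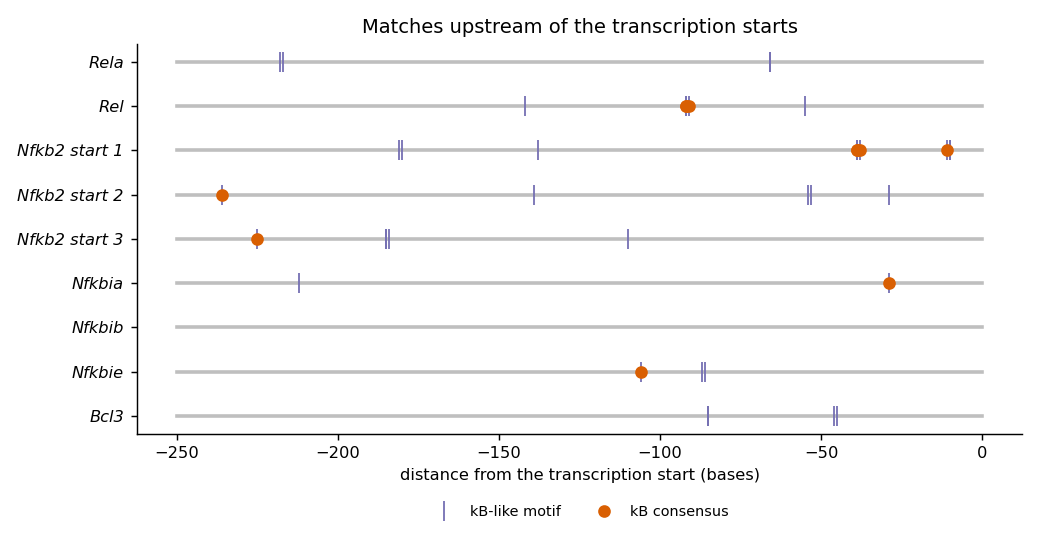
Positions of κB-like motifs (ticks) and κB consensus matches (circles) in the 250 bases upstream of 9 RefSeq starts of 7 members; the x axis is the distance from the start in bases. Circles are seen for Rel, Nfkb2, Nfkbia and Nfkbie, and the Nfkbib window holds neither motif.

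Stimulation for 6 h raised all 10 members, from 1.43-fold for Relb to 4.07-fold for Nfkbie. Of all 12782 genes tested, 34.3% rose by the same rule, and the median log2 fold change was 1.19 over the members and -0.13 over all genes. For each of the 10 the 4 stimulated libraries lay above the 4 unstimulated libraries, and the share of all genes that separate in this way was not counted. With a 2-fold minimum 6 of 10 members passed (Rela, Nfkb1, Nfkbia, Nfkbib, Nfkbie and Nfkbiz), against 19.0% of all genes. Within each genotype at 6 h, as contrasts of 1 fit to the 8 libraries of that time, 10 of 10 members rose in NFAM1+/+ and in NFAM1-/-, against 32.6% and 32.4% of the 12111 genes tested, a comparison added after the first results were seen. The monocyte markers were lower in the stimulated libraries, as given above, and their part in these differences was not tested.

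These fold changes rest on the scaled library size. The reads on the listed genes were 0.756 to 0.775 of that size in unstimulated and 1.24 to 1.32 of it in stimulated libraries at 6 h, and 0.776 to 0.788 and 0.97 to 0.997 at 24 h. When the reads of a library were divided by their own sum instead, here called own-total scaling, the median of all genes at 6 h moved from -0.13 to -0.86, the calls over all genes went from 4380 higher and 5443 lower to 2382 and 8842, and 6 of 10 members still rose. Relb then stood at -0.22 (adjusted p = 0.0661), Rel at 0.19 (0.11), Nfkb2 at 0.18 (0.0763) and Bcl3 at 0.17 (0.166). Quantile normalization also left 6 of 10, with 3792 of all genes higher and 6030 lower. Relb then stood at -0.17 (0.206), Nfkb2 at -0.06 (0.612), Rel at 0.19 (0.0872) and Nfkbia at 0.26 (0.0756). Rela, Nfkb1, Nfkbib, Nfkbie and Nfkbiz rose under all 3 scalings. Relative to the median of all genes, the 10 members stood 0.64 to 2.15 above it at 6 h under the deposited scaling, and 0.06 to 1.45 above it under quantile normalization. Own-total scaling shifts all genes of a library alike, so it leaves these distances unchanged by construction.

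After 24 h 8 of 10 members rose, from 2.92-fold for Nfkbiz to 7.73-fold for Nfkbie, and all 8 passed the 2-fold minimum. Over all genes 37.4% rose and 14.6% rose at least 2-fold. The other members, Rel and Nfkb1, had log2 fold changes of -0.09 (SE 0.11, adjusted p = 0.513) and -0.06 (SE 0.08, adjusted p = 0.52), and their stimulated and unstimulated libraries overlapped. With own-total scaling at 24 h, which moved the median of all genes from 0.01 to -0.33 and the calls from 4778 higher and 4590 lower to 3027 and 6591, the same 8 rose and Rel and Nfkb1 passed as lower at -0.42 and -0.40, 0.09 and 0.07 below that median on the log2 scale. Quantile normalization gave -0.43 and -0.47 for these genes, which also passed as lower (adjusted p = 0.000767 and 6.68e-05) and lay 0.41 and 0.45 below its median of all genes on the log2 scale.

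**Figure D2:**
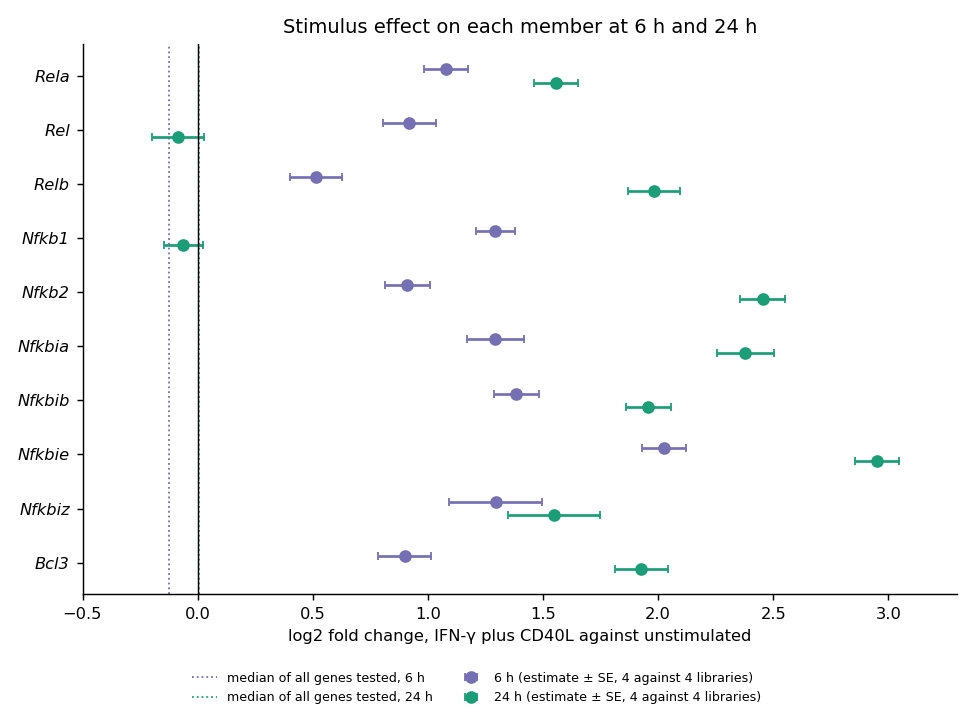
Log2 fold change with IFN-γ plus CD40L (x axis) for each member at 6 h and 24 h, with its SE, and the median of all genes tested as dotted lines. At 6 h the 10 members lie between 0.51 and 2.03, and at 24 h Rel and Nfkb1 lie at -0.09 and -0.06 while the other 8 lie between 1.55 and 2.95.

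The difference between the effects at the 2 times was itself tested, and it passed for 9 of 10 members. The effect was larger at 24 h for 7 members, against 33.9% of all genes, and smaller for Rel and Nfkb1, against 30.7%. Nfkbiz was the exception, with a difference of 0.25 (SE 0.28, adjusted p = 0.447). With own-total scaling the calls over all genes went from 4335 larger and 3929 smaller to 6317 and 2612, the directions of the 9 members held, and Nfkbiz passed at 0.65 (adjusted p = 0.0427).

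Nfkb1, which encodes the precursor of p50 and lies at chr3:135584655-135691547 on the minus strand of GRCm38, was the member whose effect was most reduced between 6 and 24 h. In unstimulated libraries at 6 h it was at 556 and 561 CPM in NFAM1+/+ and 454 and 427 CPM in NFAM1-/-. In stimulated libraries it was at 1357 and 1270.3 CPM in NFAM1+/+ and 1157 and 1091 CPM in NFAM1-/-. At 24 h it was at 332, 348, 348 and 336 CPM unstimulated and at 317, 343, 318 and 329 CPM stimulated, NFAM1+/+ titles first. The stimulated libraries were thus high at 6 h, and at 24 h all 8 libraries lay between 317 and 348 CPM. The log2 fold change was 1.29 (SE 0.08, adjusted p = 2.45e-10) at 6 h, and its change to 24 h was -1.35 (SE 0.12, adjusted p = 4.69e-08).

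Nfkb2, which encodes the precursor of p52 and lies at chr19:46304320-46312385 on the plus strand, went the other way. At 6 h it was at 403, 401, 375 and 338 CPM unstimulated and 769, 722, 708 and 649.6 CPM stimulated, NFAM1+/+ first. At 24 h it was at 198, 183, 154 and 136 CPM unstimulated and 945, 952, 921 and 826 CPM stimulated. The unstimulated libraries were lower at 24 h than at 6 h and the stimulated ones higher, with no overlap between any of the 4 conditions. The log2 fold change was 0.91 (SE 0.10, adjusted p = 1.85e-07) at 6 h and 2.45 (SE 0.10, adjusted p = 3.97e-13) at 24 h, a change of 1.54 (SE 0.14, adjusted p = 5.57e-08). Exons of Psd and of a noncoding gene on the opposite strand share 6.52% and 11.6% of the exon bases of Nfkb2, and the libraries did not keep strand.

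Relb, whose product pairs with p52, lies at chr7:19606217-19629438 on the minus strand and followed Nfkb2. It was at 170.5, 189, 172 and 150.1 CPM unstimulated and 244, 237, 253 and 237 CPM stimulated at 6 h, and at 114, 96.9, 81.8 and 70.1 CPM unstimulated and 373, 372, 356 and 311 CPM stimulated at 24 h. The stimulated libraries at 24 h were the highest for this gene and the unstimulated ones at 24 h the lowest. Its log2 fold change was 0.51 (SE 0.11, adjusted p = 0.000483) at 6 h, the smallest of the 10 members, and 1.98 (SE 0.11, adjusted p = 4.25e-11) at 24 h.

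Rel, which encodes c-Rel and lies at chr11:23736847-23770970 on the minus strand, was at 176, 161, 165 and 148 CPM unstimulated and 412, 318, 264 and 255 CPM stimulated at 6 h. At 24 h it was at 181, 198, 171 and 165 CPM unstimulated and 166, 173, 155 and 179 CPM stimulated. The stimulated libraries at 6 h stood above the other 12, which overlapped. The log2 fold change at 6 h was 0.92 (SE 0.11, adjusted p = 1.13e-06) and its change to 24 h was -1.01 (SE 0.16, adjusted p = 3.77e-05). Rela, at chr19:5637483-5648130 on the plus strand, encodes RelA, which is part of the best known canonical dimer. It was at 193 ± 9.46 CPM (SD, n = 4) unstimulated and 408 ± 46.3 stimulated at 6 h, and at 161 ± 10.5 and 476 ± 68.0 CPM at 24 h, with log2 fold changes of 1.08 (SE 0.09) and 1.56 (SE 0.09).

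Among the classical inhibitors, Nfkbie, which encodes IκBε and lies at chr17:45555703-45563169 on the plus strand, had the largest fold change of the 10 members at both times. It was at 141, 145, 141 and 117 CPM unstimulated and 635, 534, 532 and 514 CPM stimulated at 6 h, and at 90.8, 86.2, 75.3 and 65.4 CPM and 594, 632, 619.8 and 593 CPM at 24 h. The stimulated libraries of the 2 times overlapped, while the unstimulated libraries were lower at 24 h. Its log2 fold changes were 2.03 (SE 0.09, adjusted p = 2.02e-12) and 2.95 (SE 0.09, adjusted p = 1.99e-14). Nfkbia, which encodes IκBα and lies at chr12:55489410-55492647 on the minus strand, was at 476, 482, 449 and 369.7 CPM unstimulated and 1130.4, 1093, 1068 and 1039 CPM stimulated at 6 h, and at 302, 283, 213 and 182 CPM and 1226, 1305, 1262 and 1196 CPM at 24 h. It rose by 1.29 (SE 0.12) and 2.38 (SE 0.12) on the log2 scale, and its 4 conditions did not overlap, as for Nfkb2 and Relb. Nfkbib, which encodes IκBβ and lies at chr7:28758251-28767512 on the minus strand, went from 86.6 ± 10.8 to 225 ± 11.5 CPM at 6 h and from 55.7 ± 4.99 to 217 ± 26.2 CPM at 24 h (SD, n = 4). Exons of Ccer2 and Sirt2 on the opposite strand share 14.5% and 1.94% of its exon bases.

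The nuclear members differed from each other. Nfkbiz, which encodes IκBζ and lies at chr16:55811375-55838899 on the minus strand, was at 109, 105, 90.8 and 69.5 CPM unstimulated and 300.2, 238, 197 and 185 CPM stimulated at 6 h, and at 90.1, 101, 57.8 and 49.5 CPM and 215, 221, 195 and 204 CPM at 24 h. Over the 4 conditions together its SE, 0.20 on the log2 scale, was larger than that of the other 9, 0.08 to 0.12, although its 4 stimulated libraries at 24 h lay close together, and its fold changes of 1.29 and 1.55 could not be told apart between the times. Bcl3, at chr7:19808462-19822770 on the minus strand, went from 109.7 ± 9.76 to 204 ± 11.9 CPM at 6 h and from 63.9 ± 13.9 to 239 ± 16.1 CPM at 24 h (SD, n = 4), and its effect grew by 1.03 (SE 0.16, adjusted p = 3.2e-05). An antisense gene, Gm16175, shares 6.5% of the exon bases of Bcl3.

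**Figure D3:**
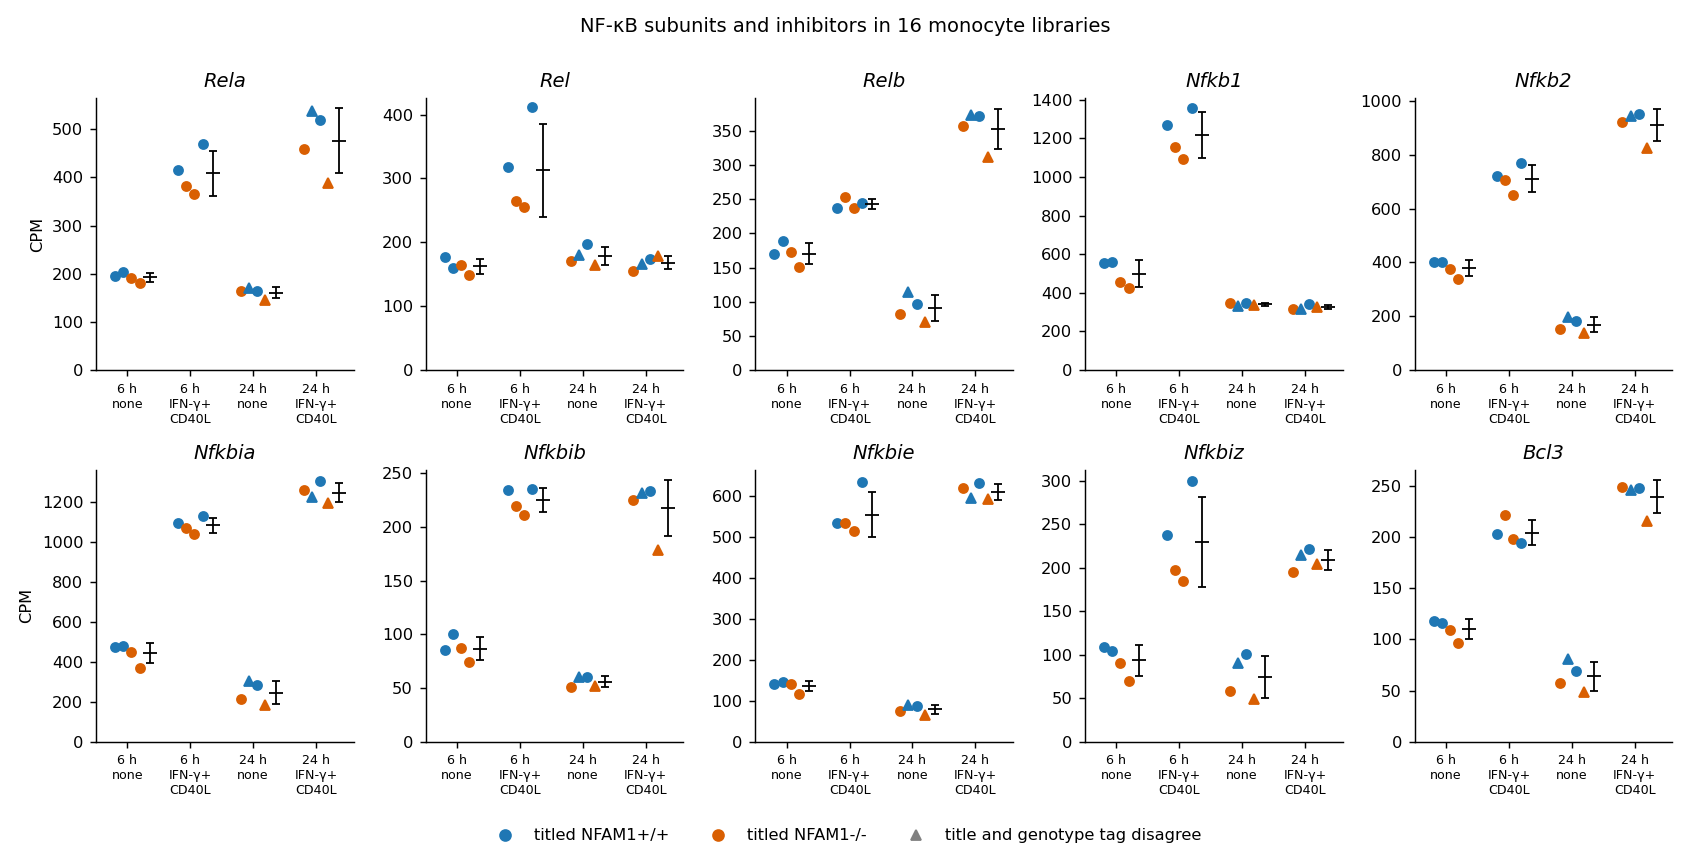
CPM (y axis) of the 10 members in each of 16 libraries, by time and stimulus, coloured by the genotype of the title, with the mean and SD of 4 libraries beside the points. Nfkb1 and Rel are high in stimulated libraries at 6 h and overlap at 24 h. For Nfkb2, Relb and Nfkbia all stimulated libraries at 24 h lie above the other libraries.

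The change between the times was then split by condition. In unstimulated cells 8 of 10 members were lower at 24 h than at 6 h, against 28.8% of all genes, from -0.26 (SE 0.09) for Rela to -1.19 (SE 0.10) for Nfkb2 on the log2 scale. Rel (0.14, SE 0.11, adjusted p = 0.313) and Nfkbiz (-0.37, SE 0.20, adjusted p = 0.121) did not pass. The sums of neutrophil and of dendritic cell markers were higher in these unstimulated libraries at 24 h, the latter largely through Flt3, as given above. The part of such cells in this result was not tested. In stimulated cells Nfkb1 fell by 1.90 (SE 0.08, adjusted p = 3.55e-12) and Rel fell by 0.87 (SE 0.11, adjusted p = 2.55e-06), against 35.7% of all genes lower. Relb rose by 0.54 (SE 0.11), Nfkb2 by 0.36 (SE 0.10) and Rela by 0.22 (SE 0.09, adjusted p = 0.048), against 38.7% of all genes higher, and the other 5 lay between -0.11 and 0.23. The call of Rela was lost when any 1 of 6 of the 8 stimulated libraries was left out (adjusted p up to 0.161), and its call in unstimulated cells when any 1 of 3 of the 8 unstimulated libraries was (up to 0.0811). Own-total scaling raised the number of members passing in stimulated cells from 5 to 9. It moved the median of all genes from 0.04 to 0.41 and the calls from 4943 higher and 4559 lower to 6892 and 3002. Quantile normalization also gave 9 members, with 5170 of all genes higher and 4124 lower.

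Ratios of 2 members within a library do not depend on how that library was scaled. Each of 5 ratios was compared between 4 stimulated and 4 unstimulated libraries at each time by an exact two-sided permutation test, which cannot go below p = 0.0286 with 4 against 4 and gives an adjusted p of 0.0408 at that limit over the 10 tests. At 6 h the log2 ratio of Nfkb2 to Nfkb1 was -0.39 ± 0.10 unstimulated and -0.77 ± 0.05 stimulated (SD, n = 4), a difference of -0.38 (exact p = 0.0286). At 24 h it was -1.04 ± 0.25 and 1.48 ± 0.11, a difference of 2.52 (exact p = 0.0286). Nfkb2 transcripts were thus at 0.567 to 0.612 of the Nfkb1 level in stimulated libraries at 6 h and at 2.51 to 2.99 times that level at 24 h, in CPM, which are not corrected for gene length.

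The Relb to Rela ratio also turned. It differed by -0.57 at 6 h and by 0.43 at 24 h between stimulated and unstimulated libraries (log2, exact p = 0.0286 for both), and the exact p at 24 h was 0.0571 when any 1 of the 4 stimulated libraries was left out. Rel to Rela differed by -0.16 at 6 h (exact p = 0.143) and by -1.64 at 24 h (exact p = 0.0286). Nfkbia to Rela, an inhibitor against its target, differed by 0.21 at 6 h (exact p = 0.0571) and by 0.82 at 24 h (exact p = 0.0286). Nfkbiz to Nfkbia differed by 0.00 at 6 h (exact p = 0.971) and by -0.83 at 24 h (exact p = 0.0286). Each of the 5 ratios separated the 4 stimulated from the 4 unstimulated libraries at 24 h, and 2 of the 5 did at 6 h.

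**Figure D4:**
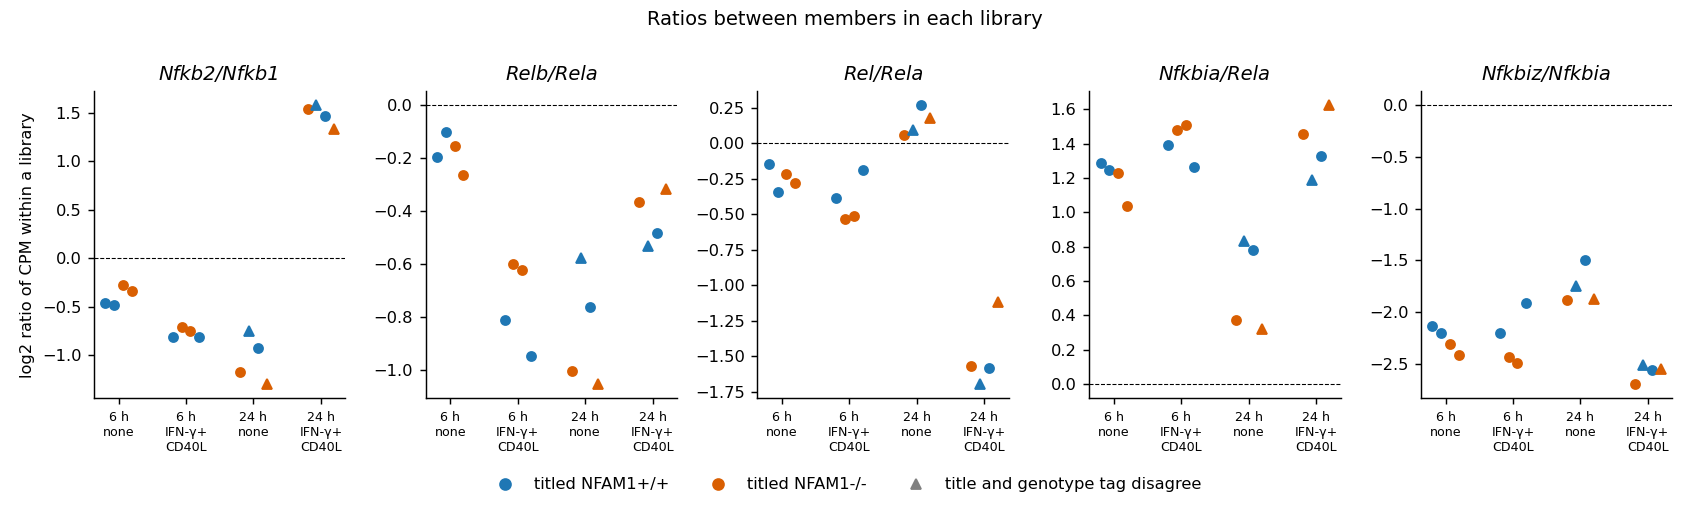
Log2 ratio of 2 members within each library (y axis) by time and stimulus, coloured by the genotype of the title. Nfkb2 over Nfkb1 lies between -1.30 and -0.27 in the 12 other libraries and between 1.33 and 1.58 in stimulated libraries at 24 h.

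Per kilobase of exon (GENCODE vM21, all annotated exons joined), Nfkbia was the most abundant member in every condition, at 276 ± 32.0 CPM per kb unstimulated and 672 ± 24.1 stimulated at 6 h and at 152 ± 35.4 and 775 ± 29.3 at 24 h (SD, n = 4), apart from the next member each time. In unstimulated cells at 6 h Nfkb2 (82.7) and Rela (62.7) followed, then Nfkbie, Bcl3, Relb, Nfkb1 and Nfkbib between 44.6 and 39.9 CPM per kb, whose libraries overlapped from each to the next, and Rel (21.8) and Nfkbiz (18.6), which overlapped. With the stimulus at 6 h Nfkbie was second at 182 CPM per kb, and Rel and Nfkbiz were last and overlapped. With the stimulus at 24 h Nfkbie (200.2) and Nfkb2 (199) overlapped, and Nfkb1 (27.1) and Rel (22.5) were last and separate. In unstimulated cells at 24 h the members from Nfkb1 to Nfkbiz, the 7 lowest, overlapped from each to the next between 28.3 and 14.8 CPM per kb. This order depends on the joined exon length, 12.06 kb for Nfkb1 and 1.61 kb for Nfkbia, which can exceed that of the transcripts present. In CPM Nfkb1 stood above Nfkbia unstimulated (500 against 444) and stimulated (1219 against 1083) at 6 h and unstimulated at 24 h (341 against 245). With the stimulus at 24 h Nfkb1 was at 327 CPM, below Nfkbia (1247) but above Nfkbib (217), Nfkbiz (209) and Bcl3 (239).

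The profiles over the 16 libraries were compared by the mean absolute difference between log2 values after each gene was centred on its own mean. Relb and Bcl3 were nearest to each other among the members, at 0.12, and Bcl3 was the nearest of all 12781 genes compared to Relb. These genes lie 179 kb apart on chromosome 7, on the same strand. Nfkb2 and Nfkbia came next, at 0.13, and Nfkb1 and Rel were 0.43 apart, each the nearest member to the other. Outside the members the nearest genes were Zfand3 and Vamp8 to Rela (0.10 and 0.11), Diaph2 and Btaf1 to Rel (0.08 and 0.09), Pde6d to Relb (0.14), Actb and Xiap to Nfkb1 (0.12 and 0.14), Gda and Gm31718 to Nfkb2 (0.11 for both), Gpr132 and Traf2 to Nfkbia (0.10 and 0.11), Pola2 and Traf2 to Nfkbib (0.09 and 0.10), Sod2 and Gtpbp2 to Nfkbie (0.15 and 0.18), Zmynd15 and Pde4b to Nfkbiz (0.15 and 0.19) and Fam96b to Bcl3 (0.12). All these profiles span the same 4 conditions.

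The genes around the members in the pathway moved in both directions. Of all 12782 genes tested 4380 (34.3%) rose and 5443 fell at 6 h, and 4778 (37.4%) rose and 4590 fell at 24 h. Of 10 kinases and partners 5 rose and 3 fell at 6 h, with a median of 0.25, and 6 rose and 4 fell at 24 h, with a median of 0.27, against medians of -0.13 and 0.01 for all genes. Tbk1 and Ikbke, which encode IKK-related kinases, rose by 1.54 (SE 0.06) and 1.06 (SE 0.22) at 6 h on the log2 scale. Map3k14, which encodes NIK of the non-canonical pathway, went from 76.4 ± 3.02 to 38.0 ± 3.27 CPM (SD, n = 4) at 6 h and from 86.8 ± 9.23 to 41.3 ± 2.81 CPM at 24 h, log2 fold changes of -1.01 (SE 0.08) and -1.07 (SE 0.08). Tab1, an adaptor of the kinase TAK1, fell by 0.96 (SE 0.10) at 6 h. With own-total scaling 1 kinase gene rose and 7 fell at 6 h, and 1 rose and 5 fell at 24 h.

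Of 9 genes for ubiquitin ligases, deubiquitinases and their partners 6 rose and 2 fell at 6 h (median 1.10). At 24 h 7 rose and 1 fell (median 0.84). Over all genes 34.3% rose at 6 h and 37.4% at 24 h. Tnfaip3, which encodes the feedback inhibitor A20, rose from 197 ± 29.3 to 1393 ± 167 CPM (SD, n = 4) at 6 h. Rnf31 and Rbck1, subunits of the linear ubiquitin ligase, rose by 2.12 (SE 0.06) and 1.18 (SE 0.05), and Cyld, a deubiquitinase, by 1.35 (SE 0.06). Nfkbid, a further nuclear IκB-like gene, rose by 0.41 (SE 0.14, adjusted p = 0.0146) at 6 h and was at -0.05 (SE 0.14, adjusted p = 0.776) at 24 h, and with own-total scaling it passed as lower at both times. Of 16 target genes 12 rose and 2 fell at each time, against the same 34.3% and 37.4% of all genes rising. The target medians were 2.78 and 2.85. Ptgs2, which encodes cyclooxygenase-2, went from 4.78 ± 1.63 to 1060 ± 163 CPM at 6 h, and the chemokine gene Ccl5 from 8.06 ± 1.38 to 1812 ± 614 CPM. The cytokine genes Il12b and Il6 were at 0.0827 to 0.571 and 0.666 to 0.938 CPM unstimulated and at 26.4 to 174 and 12.4 to 20.7 CPM stimulated at 6 h.

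The study asked how loss of NFAM1 changes monocyte activation, so the members were compared by genotype within each condition. At 6 h 0 of 10 members passed in unstimulated or in stimulated libraries, and 0 of 10 for the interaction of genotype and stimulus (limma, 12111 genes). At an unadjusted p under 0.05 there were 3, 4 and 0 members, against 8.74%, 12.6% and 6.99% of all genes. Over all genes 0.107% passed as lower in NFAM1-/- unstimulated and 0.0165% stimulated. The log2 differences were below 0 for 10 of 10 members unstimulated (-0.42 to -0.10) and for 8 of 10 stimulated (-0.48 to 0.08). The medians of all genes were 0.005 and 0.014, and the share of all genes below 0 was not counted. The members were measured in the same libraries and are not independent observations.

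In unstimulated libraries at 6 h both NFAM1-/- libraries lay below both NFAM1+/+ libraries for 6 members (Rela, Nfkb1, Nfkb2, Nfkbia, Nfkbiz and Bcl3), and above both for 0, against 20.4% of all genes below. The largest differences were Nfkbiz at -0.42 (SE 0.14, adjusted p = 0.389) and Nfkb1 at -0.34 (SE 0.07, adjusted p = 0.175). In stimulated libraries 8 members lay below in both (all but Relb and Bcl3), against 19.0% of all genes. In these libraries the monocyte markers summed to 8038 and 8201 CPM in NFAM1+/+ and to 9955 and 9618 CPM in NFAM1-/-, and the dendritic cell markers to 51.1 and 39.9 against 34.5 and 37.4 CPM, and their part in the difference was not tested. Nfkbiz was at 300.2 and 238 CPM in NFAM1+/+ and at 197 and 185 CPM in NFAM1-/-, a difference of -0.48 (SE 0.14, adjusted p = 0.323). Rel was at 412 and 318 against 264 and 255 CPM, -0.48 (SE 0.12, adjusted p = 0.294), and Rela at 470.2 and 416 against 382 and 365 CPM, -0.24 (SE 0.08, adjusted p = 0.334). Without the second stimulated NFAM1+/+ library these 3 members passed, Rel at -0.67 (adjusted p = 0.00537), Nfkbiz at -0.65 (0.0234) and Rela at -0.33 (0.0293), in a fit where 1 library stood for its group and was assumed to vary like the others and where 1107 genes passed, or 9.14% of those tested. Without the first stimulated NFAM1+/+ library the same members stood at -0.29 (0.655), -0.31 (0.739) and -0.16 (0.741), and 0 genes passed. Averaged over both stimuli, a fit added later, 0 of 10 passed, with Nfkb1 nearest at -0.28 (SE 0.05, adjusted p = 0.0861).

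At 24 h, with the genotype of the title, 2 of 10 members were lower in unstimulated NFAM1-/- libraries, against 0.707% of all genes. Nfkbiz was at 90.1 and 101 CPM in libraries titled NFAM1+/+ and at 57.8 and 49.5 CPM in those titled NFAM1-/-, a log2 difference of -0.83 (SE 0.09, adjusted p = 0.00818). Nfkbia was at 302 and 283 against 213 and 182 CPM, -0.57 (SE 0.09, adjusted p = 0.027). By title 9 of 10 members lay lower in both libraries, all but Nfkb1, against 23.3% of all genes. The dendritic cell markers summed to 90.4 and 98.9 CPM in the libraries titled NFAM1+/+ and to 163 and 190.5 CPM in those titled NFAM1-/-, and the neutrophil markers to 724 and 544 against 942 and 693 CPM. Flt3 alone made up 67.3 and 77.7 against 129 and 145 CPM of the dendritic cell sums. The part of other cells in this difference was not tested.

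These calls at 24 h rest on the titles. With the genotype tag, which exchanges 1 library of each group, 0 of 10 passed and Nfkbiz stood at 0.03 and Nfkbia at 0.16. In the 2 unstimulated libraries whose labels name 1 genotype, 1 of each, the differences were -0.80 for Nfkbiz and -0.41 for Nfkbia, with no test. With a prior variance that did not follow mean expression neither passed, at adjusted p = 0.124 and 0.223. Leaving out 1 unstimulated library at a time gave -0.94 to -0.72 for Nfkbiz and -0.69 to -0.46 for Nfkbia. In these fits 1 library stood for its group. The call of Nfkbia was lost when either library titled NFAM1+/+ was left out, and when the second titled NFAM1-/- was. In stimulated libraries at 24 h 0 of 10 passed by title, against 0.206% of all genes lower, and 1 of 10 had an unadjusted p under 0.05, against 17.8% of all genes. The median of all genes was 0.006, and the share of all genes below 0 was not counted. Among the members all 10 differences were below 0 (-0.33 to -0.02). Those of Rel, Nfkb1, Nfkbia and Nfkbie turned above 0 with own-total scaling, quantile normalization or both. By title 5 members lay below in both libraries, against 23.7% of all genes. Without the first stimulated NFAM1-/- library at 24 h Rela stood at -0.45 and Nfkbib at -0.38, in a fit where the second library titled NFAM1-/- stood for its group. The title and tag of that second library disagree, and it was the lowest of its condition for both genes, at 388 and 178 CPM. The difference between the unstimulated and stimulated effects was 0.70 for Nfkbiz (SE 0.13, adjusted p = 0.0653) and 0.53 for Nfkbia (SE 0.12, adjusted p = 0.114), so it was not shown that the genotype effect depends on the stimulus.

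**Figure D5:**
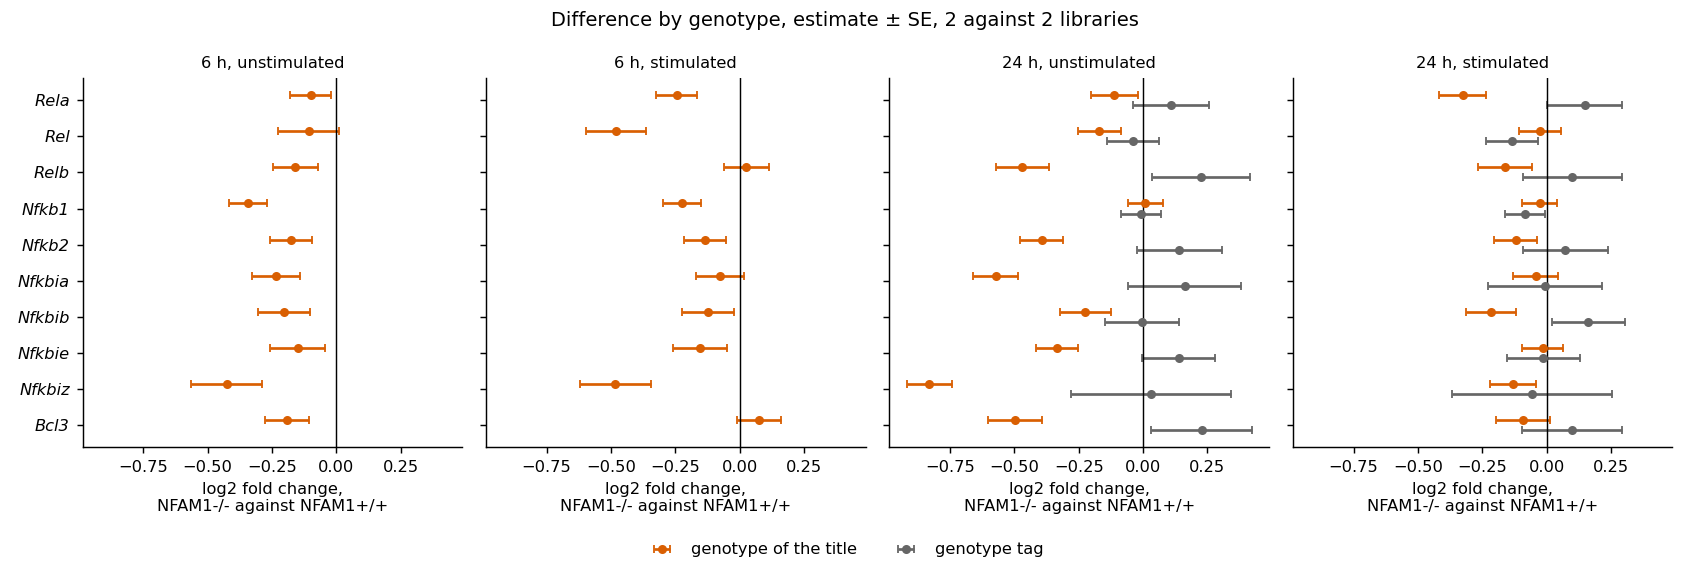
Log2 fold change of NFAM1-/- against NFAM1+/+ (x axis) with its SE for each member in the 4 conditions, by the genotype of the title and, at 24 h, also by the genotype tag. By title most points lie below 0, with Nfkbiz lowest at -0.83 in unstimulated libraries at 24 h, and by tag they lie on both sides of 0.

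The pathway lists by genotype were examined as well. At 6 h 0 kinase, 0 ubiquitin and 0 target genes passed in either condition, while the median over the 15 target genes tested was -0.41 unstimulated and -0.42 stimulated against 0.00 and 0.01 for all genes. At 24 h by title 1 kinase gene, 2 ubiquitin genes, Nfkbid and 3 of 16 target genes were lower in unstimulated NFAM1-/- libraries, against 0.707% of all genes, and 0 in stimulated ones. With own-total scaling 2 target genes passed as lower there, and 1 target gene in unstimulated libraries at 6 h.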

How the data were processed

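The authors sequenced non-stranded polyadenylated RNA libraries in read pairs and used STAR for alignment, Rsubread for gene counts, and edgeR and limma for normalization. The submitters' processing notes name GRCm39, and versions are not given in the sources used here. They deposited 1 table of log2 CPM, in which 0.5 was added to the reads of a gene before division by a scaled library size, for 16 libraries. In each library 100% of the values gave whole reads within 0.001 of a read, and depths come from these. Precision is set by the 2 to 4 libraries in a group.

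The deposited log2 values were fitted with limma 3.58.1 in R 4.3.3, with a prior variance that follows mean expression and Benjamini-Hochberg adjustment over the genes that reached 1 CPM in 2 or more libraries. Stimulus and time were fitted over 16 libraries in 4 conditions (12 residual degrees of freedom, 12782 genes), and genotype over 8 libraries at each time (4 residual degrees of freedom, 12111 genes at 6 h and 12164 at 24 h). The fold minimum of 2 is the study's. Positions and exon lengths are from GENCODE vM21 on GRCm38. The alternatives were other filters, scalings, prior variances, weights, an added 1 CPM, other groupings and leaving out each library. The members, lists and tests were chosen with earlier results of these data known. The named genes are the members, Nfam1, up to 4 genes per list with the largest changes among those passing at 6 h, the 2 genes nearest to each member, and the dendritic cell markers. The steps were tested on simulated data. The results of 2 further motif searches are not reported here.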

Additional observations from a re-analysis of the deposited data

Results flagged for a closer look

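For 9 of the 10 members the stimulus effect differed between 6 and 24 h by the test of the difference itself (limma, Benjamini-Hochberg adjusted p under 0.05). Over all genes tested 33.9% passed with a larger effect at 24 h and 30.7% with a smaller one. On the log2 scale the change from 6 to 24 h was 0.48 for Rela, 1.47 for Relb, 1.54 for Nfkb2, 1.09 for Nfkbia, 0.57 for Nfkbib, 0.92 for Nfkbie and 1.03 for Bcl3, and it was -1.01 for Rel and -1.35 for Nfkb1. The effects at the 2 times share no libraries.

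In 3 of 40 groups of 4 libraries 1 library stood apart by Dixon's criterion, which flags about 1 in 20 groups by chance. In stimulated cells at 24 h the second library titled NFAM1-/- was low for Nfkbib, at 178 CPM, and for Bcl3, at 215 CPM, and its title and genotype tag disagree. In unstimulated cells at 6 h the second NFAM1-/- library was low for Nfkbie, at 117 CPM.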

How the results depend on the processing

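Log2 fold changes are given unless a count of members is named, and the cause of each change was not tested. With own-total scaling and with quantile normalization 6 and 6 of 10 members passed for the stimulus at 6 h, with Relb at -0.22 and -0.17 and Nfkb2 at -0.0597 under quantile normalization, and 9 and 9 members passed for 24 h against 6 h in stimulated cells, with Nfkbib at 0.31 and 0.32 and Nfkbiz at 0.26 and 0.26. For genotype in stimulated cells at 24 h own-total scaling gave 0.0082 for Rel, 0.0066 for Nfkb1 and 0.018 for Nfkbie, and quantile normalization gave 0.014 for Rel, 0.045 for Nfkbia and 0.0296 for Nfkbie. Without the 4 libraries of conflicting labels Nfkbib stood at 0.029 for 24 h against 6 h in stimulated cells.

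For genotype in unstimulated cells at 24 h 0 members passed with a prior variance without trend, 5 with voom weights, 5 with the libraries of the groups compared alone and 0 with the genotype tag, where 5, 221, 239 and 1 of all 12164 genes passed. The tag gave 0.11 for Rela, 0.23 for Relb, -0.0094 for Nfkb1, 0.14 for Nfkb2, 0.16 for Nfkbia, 0.14 for Nfkbie, 0.032 for Nfkbiz and 0.23 for Bcl3 there, and in stimulated cells 0.15 for Rela, 0.10 for Relb, 0.073 for Nfkb2, 0.16 for Nfkbib and 0.10 for Bcl3. With 1 CPM added, the Nfkbiz to Nfkbia ratio at 6 h differed by -0.0063.

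Leaving out 1 library at a time gave, for 24 h against 6 h in stimulated cells, -0.10 to 0.034 for Nfkbib and -0.21 to 0.023 for Nfkbiz. For genotype in stimulated cells at 6 h it gave 0 to 3 members, with 3 without the second NFAM1+/+ library, where calls over all genes went from 5 to 1107, and -0.0197 to 0.0705 for Relb and -0.0034 to 0.16 for Bcl3. For the interaction at 6 h it gave 0 to 1 member, with 1 without that same library. For genotype at 24 h it gave 1 to 2 members unstimulated, with -0.025 to 0.041 for Nfkb1, and 0 to 2 stimulated, with -0.13 to 0.077 for Rel, -0.086 to 0.031 for Nfkb1, -0.087 to 0.0026 for Nfkbia, -0.0595 to 0.029 for Nfkbie and -0.20 to 0.013 for Bcl3. The ratios at 6 h ranged from -0.23 to -0.12 for Rel to Rela, 0.16 to 0.26 for Nfkbia to Rela and -0.11 to 0.078 for Nfkbiz to Nfkbia, and at 24 h from 0.36 to 0.52 for Relb to Rela.

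Over all genes, the alternatives moved the calls for genotype from 19 to between 0 and 86 unstimulated and from 5 to between 0 and 1107 stimulated at 6 h, for the interaction from 0 to between 0 and 272, and at 24 h from 114 to between 1 and 239 unstimulated and from 37 to between 0 and 739 stimulated. No paired analysis was possible because the numbers in the titles are library numbers that the groups do not share, and the labels do not say which libraries come from the same mouse.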
